A study of Mus musculus with 6 samples.

Results

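Skeletal muscle sarcomere and metabolism genes were followed through RNA sequencing of mouse gingiva, the mucosa around the teeth. They are 36 genes of 48709 in the count table, chosen by symbol for their known place in the muscle fibre. The tested samples were 3 libraries labelled Plg KO, from mice without a working Plg gene, and they were set against 3 libraries labelled Plg WT from littermates with the gene intact. All 6 were total RNA from gingiva of C57BL/6 mice at 12 weeks of age, with no further allele or agent in the labels. Plg encodes plasminogen, which is made mainly in the liver and is the precursor of the fibrin-dissolving protease plasmin. Whether each library is a different animal is not stated in the labels, and p-values therefore reflect only how far these libraries vary, in part perhaps for technical reasons.

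A skeletal muscle fibre contracts when myosin heads of the thick filament pull on actin of the thin filament. Calcium released from the sarcoplasmic reticulum binds troponin and opens the actin sites, and a calcium pump then returns it to the store. Fast and slow fibres are built from different isoforms of myosin, troponin and light chain. Gingiva is an epithelium on connective tissue with no skeletal muscle layer of its own, whereas the lip and cheek next to it hold striated muscle. In bulk tissue, fewer muscle fibres and less RNA per fibre cannot be told apart.

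The promoter windows of 5 genes are shown because 3 of them, Atp2a1, Acta1 and Ckm, had the highest CPM (gene counts adjusted for the size of each library) of the 36, and because Myh4 and Myh2 are near neighbours in 1 myosin gene cluster of which Myh4 moved with the other muscle genes between libraries and Myh2 did not. Each window runs from 250 bases before to 50 after the gene start in RefSeq, on build GRCm38.p6, and reads 5′ to 3′ on the strand of the gene. The windows lie at chr7:126463024-126463323 on the minus strand for Atp2a1, chr8:123894726-123895025 on the minus strand for Acta1, chr7:19410844-19411143 on the plus strand for Ckm, chr11:67237562-67237861 on the plus strand for Myh4 and chr11:67170777-67171076 on the plus strand for Myh2. Capitals mark matches, on either strand, to TATAAA, to the E-box CAGCTG that myogenic factors can bind, to the MEF2 motif and to the CArG box of serum response factor. In Myh4 the MEF2 match overlaps a further TATAAA match on the other strand.
Atp2a1: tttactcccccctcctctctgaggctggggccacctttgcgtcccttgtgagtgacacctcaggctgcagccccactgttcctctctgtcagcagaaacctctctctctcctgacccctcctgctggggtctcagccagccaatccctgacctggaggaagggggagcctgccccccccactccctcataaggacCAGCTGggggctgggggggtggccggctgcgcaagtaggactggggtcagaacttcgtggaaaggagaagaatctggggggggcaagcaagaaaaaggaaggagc
Acta1: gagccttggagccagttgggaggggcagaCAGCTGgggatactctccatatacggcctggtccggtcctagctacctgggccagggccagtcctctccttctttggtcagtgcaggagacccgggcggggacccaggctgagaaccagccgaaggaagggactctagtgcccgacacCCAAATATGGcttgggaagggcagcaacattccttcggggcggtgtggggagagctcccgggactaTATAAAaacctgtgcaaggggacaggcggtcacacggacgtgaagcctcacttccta
Ckm: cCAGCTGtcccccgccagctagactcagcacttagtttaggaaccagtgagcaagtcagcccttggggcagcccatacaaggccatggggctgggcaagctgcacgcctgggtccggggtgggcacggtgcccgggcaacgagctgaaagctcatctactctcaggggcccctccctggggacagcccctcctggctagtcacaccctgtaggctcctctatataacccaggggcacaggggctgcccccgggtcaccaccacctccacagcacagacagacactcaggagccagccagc
Myh4: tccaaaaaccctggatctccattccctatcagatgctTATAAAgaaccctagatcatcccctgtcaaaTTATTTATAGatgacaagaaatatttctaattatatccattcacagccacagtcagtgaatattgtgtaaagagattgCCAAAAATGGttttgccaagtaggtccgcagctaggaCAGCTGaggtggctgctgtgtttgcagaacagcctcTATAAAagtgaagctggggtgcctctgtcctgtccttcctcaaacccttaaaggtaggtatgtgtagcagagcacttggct
Myh2: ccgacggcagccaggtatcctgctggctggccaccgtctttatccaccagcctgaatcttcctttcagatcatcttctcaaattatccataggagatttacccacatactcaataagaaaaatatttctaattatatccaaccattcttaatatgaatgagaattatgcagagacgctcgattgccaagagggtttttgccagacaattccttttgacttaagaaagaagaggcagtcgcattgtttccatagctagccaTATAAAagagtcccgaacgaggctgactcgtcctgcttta

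A window was at hand for 30 of the 36 genes. CAGCTG stood in 14 of these 30 windows (46.7%), against 16.1% of 27025 windows of all genes. The MEF2 motif stood in 6 (20%), against 3.26% of all windows, the CArG box in 4 (13.3%), against 1.57%, and TATAAA in 7 (23.3%), against 14.2%. Such a match is a description of the letters and does not show a bound site.

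Depth was 26183389 to 36429150 gene counts per library, and the upper limit behind a count of 0, taken as 3 counts, equalled 0.0810 to 0.117 CPM, for counting error only. Plg itself had 2 counts in Plg KO 1 and 0 in Plg KO 2 and 3, against 2 counts in Plg WT 3 and 0 in Plg WT 1 and 2, so it gave no check of the labels. Ddx3y, a gene of the Y chromosome, had 1838 counts in Plg KO 1 and 1475 in Plg WT 3, against at most 2 in any other library. Xist, a gene of the X chromosome, had 2 counts in Plg KO 1 and 10 in Plg WT 3, against 917 to 1129 in the other libraries. Plg KO 1 was thus the only Plg KO library with this pattern, and the part of sex in its muscle level was not tested. Keratinocyte markers, which define the labelled tissue, summed to 41373 to 49762 CPM in Plg KO and 39987 to 47830 CPM in Plg WT. Plg KO 1 stood apart in its low level of muscle transcripts, as given next.

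Muscle transcripts were abundant in gingiva of both genotypes, and the amount varied more from library to library than between genotypes. The 36 genes took 0.645%, 2.44% and 2.95% of all gene counts in Plg KO 1, 2 and 3, against 2.94%, 1.45% and 1.73% in Plg WT 1, 2 and 3. Plg KO 1 was the lowest of the 6 libraries, Plg KO 3 and Plg WT 1 were close to each other at the top, and the groups overlapped. After TMM scaling, which sets libraries to a common effective size, the summed level was 20225 ± 12243 CPM in Plg KO and 20355 ± 7548 CPM in Plg WT (SD, n = 3 each). The ratio of Plg KO to Plg WT was 0.994, and it was 1.33 without Plg KO 1 and 0.766 without Plg KO 3. The highest library had 4.65 times the level of the lowest, and 2.02 times without Plg KO 1. No test was made on this sum.

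**Figure D1:**
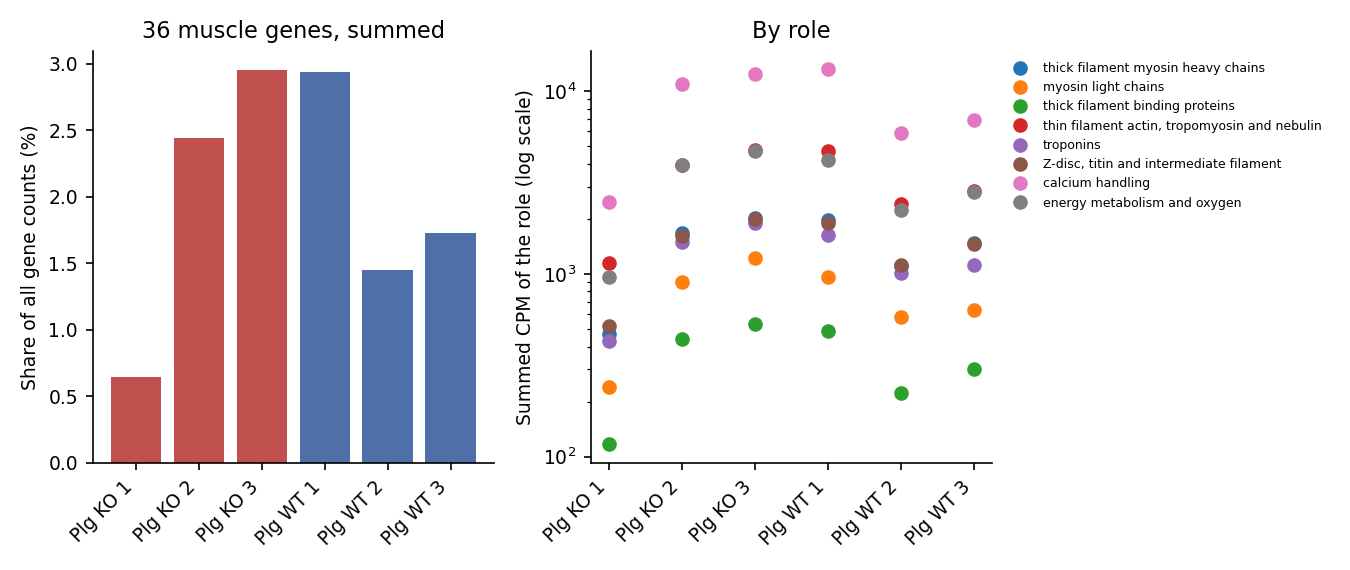
Left, the share of all gene counts (%) taken by the 36 muscle genes in each library, as bars from 0. Right, the summed CPM of each of 8 roles on a log scale, 1 point per role and library. Plg KO 1 is the lowest library in both panels, at 0.645% on the left.

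In every role of the fibre Plg KO 1 was the lowest library. Over the 8 roles into which the genes were sorted, the highest library had 3.86 to 5.30 times the level of the lowest (1.78 to 2.38 times without Plg KO 1), and the ratio of Plg KO to Plg WT ran from 0.919 for myosin heavy chains to 1.09 for myosin light chains. Of the 36 genes, 32 passed the filter on low counts and were tested. The within-group SD of log2 CPM had a median of 1.09 in Plg KO and 0.41 in Plg WT over these 32, against 0.18 in each group over all 17757 genes tested. Without Plg KO 1 the median in Plg KO was 0.24 over the 32, against 0.13 over all genes. Plg KO 1 was the lowest library for 28 of the 32 (87.5%), and for 18.8% of all genes.

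No muscle gene was called different between Plg KO and Plg WT. In edgeR's quasi-likelihood test, with an adjusted p under 0.05 as the threshold for a call, 0 of 32 were higher and 0 lower in Plg KO, against 0.191% of all genes higher and 0.0451% lower (0.237% in either direction). DESeq2 and limma-voom also called 0 of the 32, where they called 2.27% and 0.231% of all genes. At an unadjusted p under 0.05 there were 2 of 32, Actn3 and Tcap, against 9.25% of all genes. The log2 differences were positive for 17 and negative for 15, with a median of 0.01, and the median over all genes was -0.00. Standard errors (SE) ran from 0.22 to 0.90 on the log2 scale, and a call needs a change of several SE. Even differences of -1.05 ± 0.44 (SE) for Tcap and 1.48 ± 0.63 for Actn3 were not called. With 3 libraries a group, the lack of calls does not show that larger changes were absent. Without Plg KO 1, edgeR again called 0, and the median log2 difference was 0.42. In that fit 7 of 33 members had an unadjusted p under 0.05, against 1783 of 18024 genes. Most members moved together between libraries, so the 7 are not separate results.

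**Figure D2:**
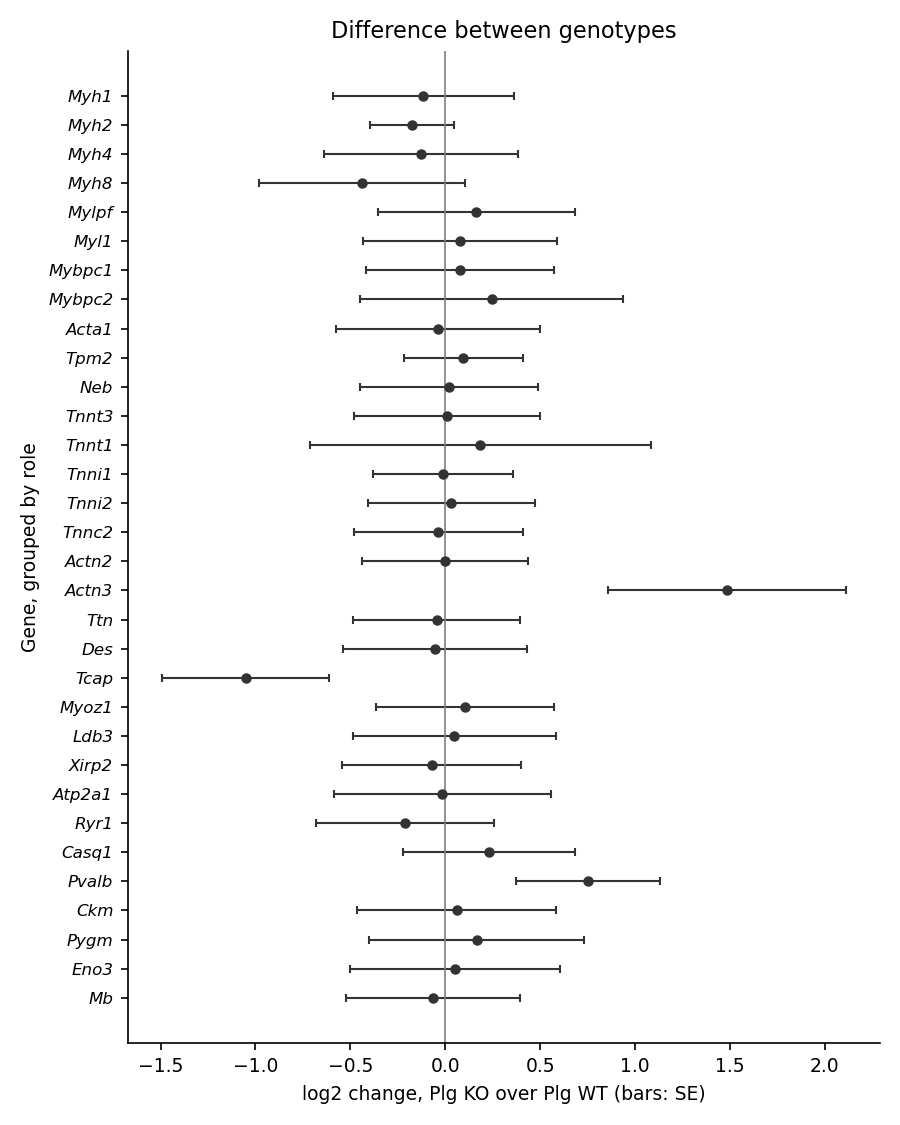
Log2 difference of Plg KO over Plg WT for the 32 tested muscle genes, grouped by role, as points with bars of 1 SE from edgeR's fit. Most points lie close to 0, Actn3 is farthest to the right at 1.48 and Tcap farthest to the left at -1.05.

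Among the thick filament myosin heavy chains, the motor proteins, the fast isoforms Myh1 and Myh4 made up nearly all transcripts. Myh1, the heavy chain of fast IIx fibres (chromosome 11, 67200052 to 67224575, GRCm38), had 256.5, 778.4 and 1088 CPM in Plg KO, against 1020, 556.8 and 722.3 CPM in Plg WT, with a log2 difference of -0.11 ± 0.48 (SE). Myh4, the heavy chain of the fastest IIb fibres, had 205.1, 893.2 and 929.6 CPM in Plg KO, against 935.0, 536.4 and 747.1 CPM in Plg WT, with a log2 difference of -0.13 ± 0.51. For both genes Plg KO 1 was the lowest library, and the Plg KO range enclosed most of the Plg WT range.

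Myh2, the heavy chain of fast oxidative IIa fibres, had 5.48, 5.09 and 8.18 CPM in Plg KO, against 8.11, 7.07 and 6.02 CPM in Plg WT (log2 difference -0.18 ± 0.22). Its highest library had 1.61 times the level of its lowest, where Myh1 and Myh4 had 4.24 and 4.56 times, so Myh2 varied little between libraries. Myh8, the perinatal isoform, had 0.43, 0.66 and 1.68 CPM in Plg KO, against 1.61, 1.39 and 0.77 CPM in Plg WT (-0.44 ± 0.54). Myh7, the slow isoform shared with the heart, had 1, 3 and 3 counts in Plg KO, against 4, 0 and 1 counts in Plg WT, and was not tested. Of the summed level per kilobase of the 5 heavy chains, Myh1 took 53.6%, 45.1% and 52.4% in Plg KO, against 50.6%, 49.3% and 47.6% in Plg WT. Myh4 took 45.3%, 54.6% and 47.2% in Plg KO, against 49.0%, 50.1% and 52.0% in Plg WT. Myh2 took 1.02% in Plg KO 1 and 0.262% to 0.557% in the other 5 libraries.

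The heavy chains are close copies of each other, and the labels do not state how the authors' counting treated shared reads. Of all 37-base windows in their transcripts, the length of 1 read, 34.6% in Myh1, 34.3% in Myh2, 28.1% in Myh8 and 25.9% in Myh4 also occurred in another gene, so the split among them is uncertain. The longest coding run shared by Myh1 and Myh4, from the GENCODE M21 transcripts on GRCm38 chromosome 11, is shown because these isoforms carry most of the myosin counts. It is 161 bases long, and capitals mark its first 37 bases, the length of 1 read, which could not be assigned to either gene from this stretch alone.
Myh1 and Myh4, shared coding run: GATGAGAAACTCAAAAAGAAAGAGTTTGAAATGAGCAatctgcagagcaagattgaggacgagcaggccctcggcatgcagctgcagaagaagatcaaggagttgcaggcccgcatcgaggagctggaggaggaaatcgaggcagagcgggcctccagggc

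Myosin light chains and myosin binding proteins followed the fast heavy chains. Mylpf, the fast regulatory light chain, had 123.0, 482.3 and 632.3 CPM in Plg KO, against 483.5, 312.1 and 308.7 CPM in Plg WT (log2 difference 0.16 ± 0.52). Myl1, the fast essential light chain, had 118.6, 417.4 and 590.2 CPM in Plg KO, against 472.4, 270.4 and 323.4 CPM in Plg WT (0.08 ± 0.51). In both, Plg KO 3 was highest and Plg KO 1 lowest. The slow light chains Myl2 and Myl3, which the heart also uses, were close to undetected, with 8 counts in Plg KO and 6 in Plg WT over 3 libraries for Myl2, and 0 and 1 for Myl3. Mybpc1, the slow-type myosin binding protein, which also occurs in fast fibres, had 103.1, 331.2 and 438.0 CPM in Plg KO, against 383.8, 182.5 and 259.7 CPM in Plg WT. Its fast-type relative Mybpc2 had 13.9, 110.7 and 94.5 CPM in Plg KO, against 100.8, 41.0 and 42.6 CPM in Plg WT, with a log2 difference of 0.25 ± 0.69. Plg KO 1 had 13.5% of the mean of Plg KO 2 and 3 in Mybpc2, and 26.8% in Mybpc1.

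Of the thin filament genes, Acta1, the skeletal alpha actin (chromosome 8, 123891769 to 123894751), had 764.1, 3030 and 3593 CPM in Plg KO, against 3722, 1778 and 2087 CPM in Plg WT. Its log2 difference was -0.04 ± 0.54, with the lowest value in Plg KO 1, the highest in Plg WT 1 and groups that overlapped. Tpm2, a tropomyosin that covers the actin sites at rest and that smooth muscle also expresses, had 251.8, 522.5 and 636.6 CPM in Plg KO, against 525.7, 396.4 and 397.7 CPM in Plg WT. Plg KO 1 kept 43.4% of the mean of Plg KO 2 and 3 in Tpm2, the highest share among the 25 genes that moved most closely together. Neb, the giant ruler of the thin filament, had 129.0, 376.6 and 531.0 CPM in Plg KO, against 433.6, 233.7 and 354.0 CPM in Plg WT.

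Troponin, the calcium switch of the thin filament, was represented by its fast subunits. Tnnt3, the fast tropomyosin-binding subunit, had 341.6, 1223 and 1557 CPM in Plg KO, against 1353, 817.8 and 932.7 CPM in Plg WT (log2 difference 0.01 ± 0.49). Tnni2, the fast inhibitory subunit, had 76.9, 247.7 and 296.5 CPM in Plg KO, against 254.3, 177.7 and 175.4 CPM in Plg WT (0.03 ± 0.44). Tnnc2, the fast calcium-binding subunit, had 3.995, 14.8 and 15.0 CPM in Plg KO, against 13.7, 10.5 and 10.3 CPM in Plg WT (-0.04 ± 0.45). Per kilobase of exon, mean levels over the 6 libraries were 655.4 CPM for Tnnt3, 136.8 CPM for Tnni2 and 14.2 CPM for Tnnc2. Of the 800 exon bases of Tnnc2, 592 overlap Ube2c on the opposite strand, and without strand their reads cannot be told apart. The part of this overlap in the low Tnnc2 level was not tested.

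The slow troponins were low. Tnnt1 had 0.54, 1.55 and 7.14 CPM in Plg KO, against 4.67, 2.499 and 0.96 CPM in Plg WT, so its highest library, Plg KO 3, had 13.2 times the level of the lowest. Tnni1 had 2.92, 2.18 and 5.71 CPM in Plg KO, against 4.01, 2.78 and 4.13 CPM in Plg WT. Tnnc1, which the heart shares and which did not pass the filter, had 9, 1 and 80 counts in Plg KO, against 8, 12 and 6 counts in Plg WT. All 3 slow troponins were highest in Plg KO 3. Summed per kilobase, the 6 slow isoforms of myosin, light chain and troponin made up 0.255%, 0.0722% and 0.292% of slow plus 8 fast isoforms in Plg KO, against 0.171%, 0.185% and 0.131% in Plg WT. Taken as a sum, these isoforms of myosin, light chain and troponin were thus almost entirely fast in every library. For the calcium-binding troponin alone this held less well. Tnnc1 made up 4.46%, 0.202% and 10.3% of Tnnc1 plus Tnnc2 in Plg KO, against 1.21%, 3.04% and 1.41% in Plg WT. With Mybpc1 counted as slow and Mybpc2 as fast, which was added after seeing the data, the slow share was 4.40%, 3.75% and 4.09% in Plg KO, against 4.09%, 3.27% and 4.01% in Plg WT. Without these binding proteins the difference of the group means was 0.0445 percentage points, and leaving out a library gave 0.00156 to 0.112, with 0.00156 without Plg KO 3 and 0.112 without Plg KO 2.

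**Figure D3:**
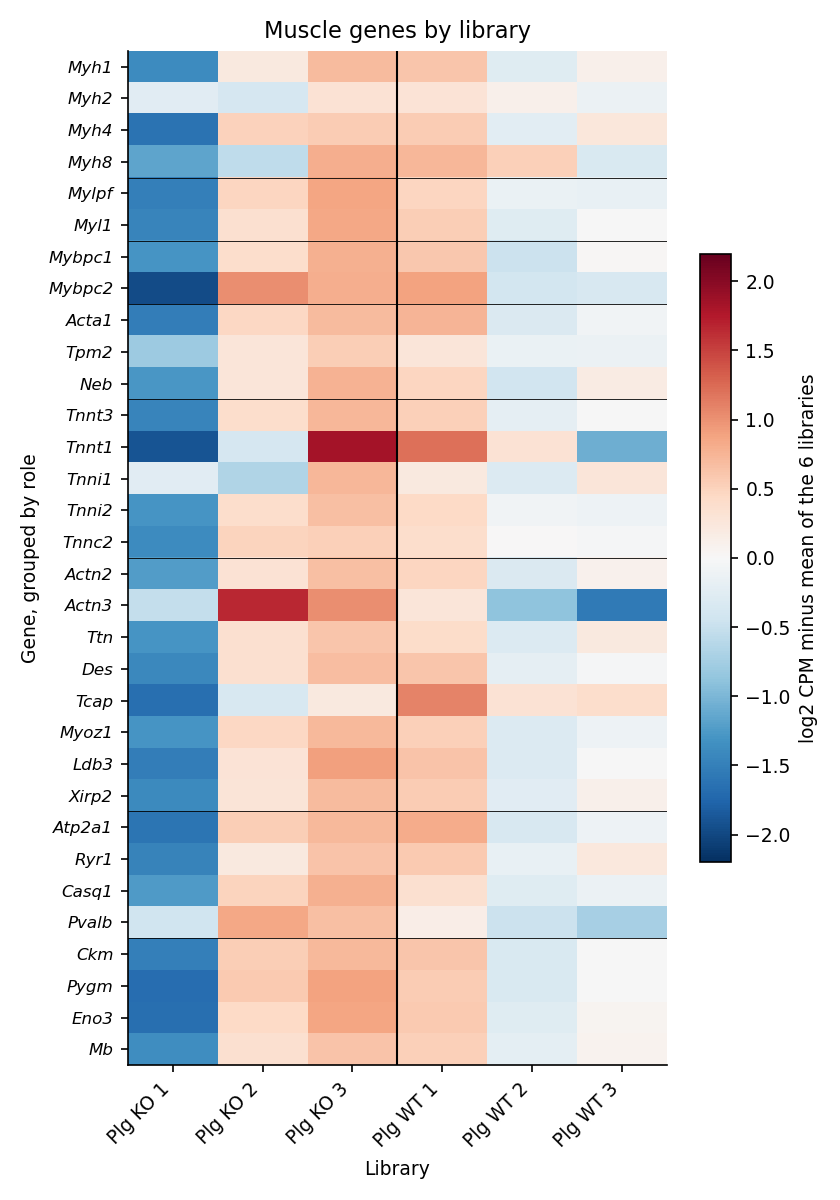
Log2 CPM of each tested muscle gene minus its mean over the 6 libraries (colour), with genes in rows grouped by role and libraries in columns, Plg KO first. The Plg KO 1 column is lowest for 28 of the 32 genes.

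At the Z-disc, where thin filaments of neighbouring sarcomeres are anchored, most genes again followed the muscle transcript level of the library. Actn2, the alpha-actinin of all striated fibres, had 122.6, 360.8 and 453.6 CPM in Plg KO, against 400.9, 231.1 and 306.4 CPM in Plg WT (log2 difference -0.00 ± 0.44). Ttn, the elastic protein that spans from Z-disc to M-line, Des, the intermediate filament that links Z-discs, Myoz1, a calcineurin-binding protein, Ldb3, a PDZ and LIM domain protein, and Xirp2, an actin-binding protein, had log2 differences between -0.07 for Xirp2 and 0.10 for Myoz1. All of these were lowest in Plg KO 1 and highest in Plg KO 3.

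Tcap and Actn3 stood apart from the other Z-disc genes, in opposite directions. Tcap, or telethonin, which caps titin at the Z-disc (chromosome 11, 98383811 to 98384953), had 40.1, 98.5 and 147.4 CPM in Plg KO, against 268.8, 157.8 and 166.4 CPM in Plg WT. Every Plg KO library lay below every Plg WT library, and Tcap was the only 1 of the 32 genes of which this held in either direction, against 14.7% of all genes. Its log2 difference was -1.05 ± 0.44 (adjusted p = 0.526, edgeR), so it was not called. Over the alternatives the log2 difference ran from -1.51 to -0.69, and -0.69 was the value without Plg KO 1.

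Actn3, the alpha-actinin of fast fibres (chromosome 19, 4861216 to 4877909), had 1.51, 6.88 and 4.43 CPM in Plg KO, against 2.59, 1.18 and 0.74 CPM in Plg WT. Plg KO 2 and 3 were above all Plg WT libraries, and Plg KO 1 lay within them. The log2 difference was 1.48 ± 0.63 (adjusted p = 0.536 in edgeR's test), and it ran from 0.97 to 2.15 over the alternatives, with 1.89 without Plg KO 1. Per kilobase of exon, Actn3 averaged 1.47 CPM in Plg KO and 0.518 CPM in Plg WT, and Actn2 averaged 82.3 CPM in Plg KO and 82.4 CPM in Plg WT. Fast fibres normally carry both proteins, and Actn3 was a minor transcript here.

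The calcium handling genes included the most abundant of all 36. Atp2a1, the calcium pump of fast fibres known as SERCA1 (chromosome 7, 126445858 to 126463108), had 2420, 10726 and 12153 CPM in Plg KO, against 12937, 5808 and 6831 CPM in Plg WT. This single gene made up 38.2%, 43.2% and 41.2% of the 36-gene sum in Plg KO, against 44.8%, 39.8% and 38.9% in Plg WT. Its log2 difference was -0.02 ± 0.57, and the sum without it had a ratio of 0.997. Of its 3477 exon bases, 763 overlap Rabep2 on the opposite strand. Casq1, which buffers calcium in the store, had 38.3, 127.5 and 155.9 CPM in Plg KO, against 115.6, 75.6 and 82.7 CPM in Plg WT (0.23 ± 0.45). Ryr1, the calcium release channel, had 8.61, 27.9 and 36.7 CPM in Plg KO, against 35.4, 21.2 and 27.9 CPM in Plg WT (-0.21 ± 0.47).

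Pvalb, or parvalbumin, a soluble calcium buffer that speeds relaxation of fast fibres, had 2.70, 6.64 and 5.80 CPM in Plg KO, against 4.07, 2.64 and 2.21 CPM in Plg WT. As with Actn3, Plg KO 2 and 3 were above all Plg WT libraries while Plg KO 1 was not. Its log2 difference was 0.75 ± 0.38 (adjusted p = 0.623, edgeR), and it was 1.06 without Plg KO 1.

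The energy metabolism genes moved as a block. Ckm, the muscle creatine kinase that regenerates ATP (chromosome 7, 19404776 to 19422841), had 643.9, 2647 and 3009 CPM in Plg KO, against 2778, 1449 and 1814 CPM in Plg WT (log2 difference 0.06 ± 0.52). Pygm, the muscle glycogen phosphorylase, had 27.2, 129.8 and 160.8 CPM in Plg KO, against 128.0, 68.7 and 86.4 CPM in Plg WT (0.17 ± 0.57). Mb, the oxygen-binding myoglobin, had 59.9, 197.8 and 239.5 CPM in Plg KO, against 223.6, 133.8 and 163.0 CPM in Plg WT (-0.07 ± 0.46). Eno3, the muscle enolase of glycolysis, had a log2 difference of 0.05 ± 0.55. All 4 were lowest in Plg KO 1 and highest in Plg KO 3.

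Compared per kilobase of exon, the 36 genes spanned a wide range of levels. Means over the 6 libraries were 2439 CPM per kilobase for Atp2a1, 1625 for Acta1, 706.1 for Ckm, 655.4 for Tnnt3, 464.5 for Eno3 and 367.5 for Mylpf. At the low end were Myh8 at 0.0927, Myl2 at 0.0345, Myh7 at 0.00713 and Myl3 at 0.00223 CPM per kilobase. Neighbours in this order, such as Myh4 at 117.6 and Myh1 at 116.0, lay within the spread between libraries.

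The genes moved together closely enough to be described as 1 level per library. Pearson's r over the 6 libraries between a gene and the mean of the other tested members, on the log2 scale, was 0.964 to 0.998 for 25 of the 32. In these 25 the highest library had 2.53 to 7.98 times the level of the lowest, and Plg KO 1 had 13.5% to 43.4% of the mean of Plg KO 2 and 3. For the remaining 7, Tnni1, Actn3, Myh2, Pvalb, Myh8, Tcap and Tnnt1, r was 0.425 to 0.803. Without Plg KO 1 the values were 0.878 to 0.998 for the 25 and 0.0714 to 0.777 for the 7, and the fold range of the 25 was 1.46 to 2.70. The points share libraries and depth, so these values are a description.

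Dividing each gene by the 36-gene sum of its library takes out the shared level for genes that follow it closely. Tcap made up 0.632%, 0.396% and 0.50% of the sum in Plg KO, against 0.930%, 1.08% and 0.947% in Plg WT. Actn3 made up 0.0238%, 0.0277% and 0.0150% in Plg KO, against 0.00897%, 0.00807% and 0.00419% in Plg WT. Pvalb made up 0.0426%, 0.0267% and 0.0197% in Plg KO, against 0.0141%, 0.0181% and 0.0126% in Plg WT. For these 3 the groups did not overlap, Plg KO 1 included, and the ratios of the mean shares were 0.517 for Tcap, 3.13 for Actn3 and 1.99 for Pvalb. All 3 followed the shared level less closely (r = 0.766 for Tcap, 0.533 for Actn3 and 0.648 for Pvalb). Dividing by the low sum of Plg KO 1 raises such shares in that library. On plain CPM, Plg KO 1 lay within Plg WT for Actn3 (1.51 CPM) and Pvalb (2.70 CPM). With Plg KO 1 included, the separation of Actn3 and Pvalb therefore rests on the division. The other 29 had overlapping shares and ratios of 0.778 to 1.31, and Acta1, with 12.1% to 12.2% in Plg KO and 11.9% to 12.9% in Plg WT, is plotted beside them for scale. Shares did not overlap in 9.4% of the 32, in 6.90% of other skeletal muscle genes and in 2.40% of all genes. The last value is no like measure, because dividing by the muscle sum carries its spread into genes that do not follow it. On plain CPM the groups did not overlap in 14.7% of all genes. Without Plg KO 1 the shares of 5 of the 32 did not overlap, the other ones being those of Myh2 and Pygm. Groups separate more easily with a library fewer, and the share over all genes was not computed for this setting. This count is therefore no result about Myh2 and Pygm.

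**Figure D4:**
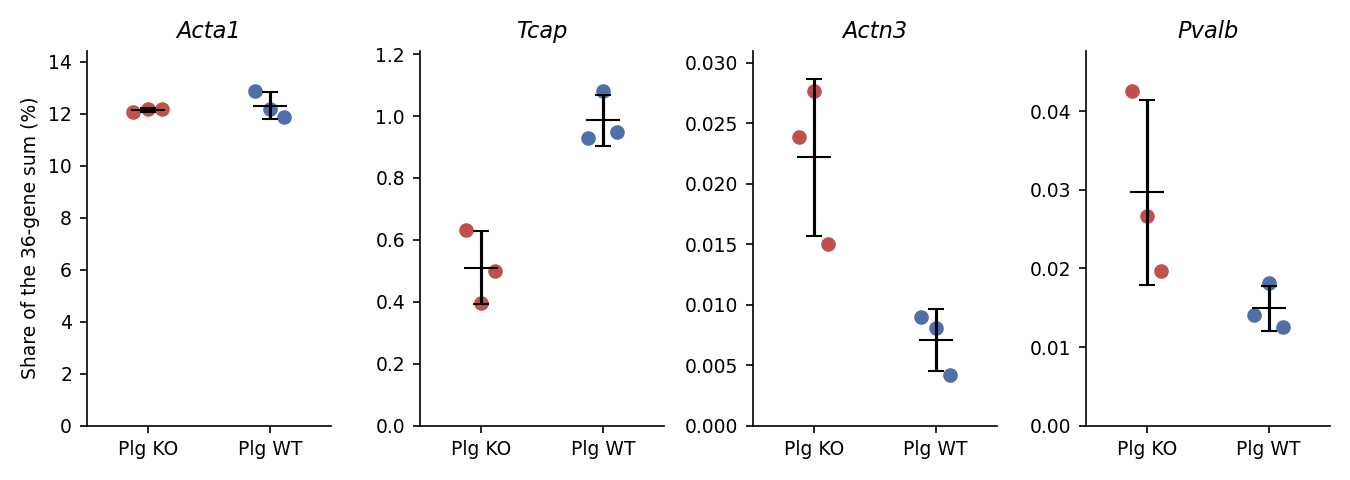
Share (%) of the 36-gene sum taken by Acta1, Tcap, Actn3 and Pvalb, with 1 point per library and the mean ± SD of the 3 libraries of each group, on axes that start at 0. Tcap lies lower in Plg KO, Actn3 and Pvalb lie higher, and the Acta1 groups overlap.

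A fit with the muscle level of each library as a covariate was added after the values were seen. The level was read from 58 skeletal muscle genes outside the 36, and the fit left 3 residual degrees of freedom. In it Tcap was called lower in Plg KO, with a log2 difference of -1.04 ± 0.095 (SE; adjusted p = 0.0161, edgeR), and it was the only call among the 32, against 0.541% of all genes. Actn3 had 1.59 ± 0.42 (adjusted p = 0.191) and Pvalb 0.82 ± 0.23 (adjusted p = 0.223), and neither was called. At an unadjusted p under 0.05 there were 5 of 32 in this fit, against 12.7% of all genes. Leaving out a library within this fit gave Tcap log2 differences of -1.16 to -0.97. The call held without Plg KO 1 (adjusted p = 0.0427, edgeR), Plg WT 1 and Plg WT 3, and was lost without Plg KO 2 (adjusted p = 0.100), Plg KO 3 (adjusted p = 0.0777) and Plg WT 2 (adjusted p = 0.105). Fits without the covariate did not call Tcap. Nr1d1, a clock repressor chosen after its values were seen, had 37.6, 33.8 and 34.4 CPM in Plg KO, against 95.5, 101.2 and 100.6 CPM in Plg WT, and its part in the Tcap difference was not tested.

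Other skeletal muscle genes, in 6 lists, were likewise lowest in Plg KO 1 for the most part, and none was called. Of 95 symbols 87 were tested and edgeR called 0 (0 at an unadjusted p under 0.05), with a median log2 difference of -0.03 and a range of -0.67 to 0.59. Plg KO 1 was the lowest library for 79 of the 87 (90.8%). Among other sarcomere genes the smallest p belonged to Tpm3 (-0.10 ± 0.11), Myoz2 (0.35 ± 0.43) and Lmod2 (-0.37 ± 0.48). Among excitation and calcium genes it belonged to Asph (0.53 ± 0.28), Sln (0.47 ± 0.71) and Jph1 (-0.28 ± 0.42). Sln, or sarcolipin, a small inhibitor of the calcium pump, had 17.4, 83.9 and 166.8 CPM in Plg KO, against 101.5, 51.9 and 39.5 CPM in Plg WT.

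The metabolism list was led by Ppargc1a, a coactivator of mitochondrial genes (-0.28 ± 0.35), Phka1 (-0.18 ± 0.43) and Fabp3 (0.22 ± 0.56). In the dystrophin complex, which ties the fibre to its matrix, Sgcd had -0.48 ± 0.33, Dag1 -0.10 ± 0.11 and Dmd -0.19 ± 0.24. Genes of the neuromuscular junction had 8 of 9 negative log2 differences, against 9024 of 17757 over all genes. Plg KO 1 was the lowest library for all 9, so these signs are not separate results. Colq had -0.67 ± 0.50, Musk -0.35 ± 0.47 and Rapsn -0.32 ± 0.53. Of the myogenic regulators, Chodl had -0.38 ± 0.29 and Myf6 0.59 ± 0.60. None of these was called.

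The genes with the library pattern most like the 36 included Myom2 and Lmod3 from the other skeletal muscle lists. Among 10913 other genes that averaged 5 CPM or more, the 10 highest r over 6 libraries, all 0.997 or 0.998, included those of Tmod1, Scn4b, Rcan2, Adssl1, Slc25a4, Myom2, Gmpr, Rtn2 and Lmod3. The lowest belonged to Hnrnpul1 (-0.994), Katnbl1, Snx12, 3830406C13Rik and Pip4p2 (-0.983). Hnrnpul1 varied 1.73-fold between its highest and lowest library and Snx12 1.21-fold.

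Smooth muscle genes shared the high Plg KO 3 with the skeletal muscle genes, but few of them were lowest in Plg KO 1. Smooth muscle genes summed to 376.4, 484.4 and 856.3 CPM in Plg KO, against 696.5, 502.0 and 268.9 CPM in Plg WT, with Plg KO 1 lowest for 2 and Plg KO 3 highest for 8 of 9 tested genes. Those with the smallest p were Actg2 (0.62 ± 0.50), Cnn1 (0.46 ± 0.44) and Mylk (0.25 ± 0.29). Cardiac genes summed to 33.3, 36.5 and 40.7 CPM in Plg KO, against 31.6, 37.2 and 43.1 CPM in Plg WT, and were led by Myl4 (0.35 ± 0.42), Pln (0.52 ± 0.74) and Tnnt2 (-0.09 ± 0.15). No gene of either list was called by edgeR.

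Markers of other tissues varied between libraries too. The adipocyte and tendon sums were lower in every Plg KO library than in any Plg WT library, and the other sums given here overlapped. Endothelial markers summed to 60.4, 76.2 and 85.1 CPM in Plg KO, against 95.7, 75.9 and 70.0 CPM in Plg WT, with Plg KO 1 lowest for 4 of 6 genes. Salivary gland markers summed to 8427, 8152 and 10161 CPM in Plg KO, against 10803, 3131 and 1744 CPM in Plg WT, and were low in Plg WT 2 and 3. Fibroblast markers summed to 2414, 1514 and 2733 CPM in Plg KO, against 2554, 3905 and 2372 CPM in Plg WT. Erythrocyte markers summed to 84.4, 119.1 and 168.6 CPM in Plg KO, against 113.3, 198.4 and 250.6 CPM in Plg WT, and all 5 were lowest in Plg KO 1. Adipocyte markers summed to 22.1, 31.1 and 39.0 CPM in Plg KO, against 70.5, 91.1 and 50.3 CPM in Plg WT. Among them Cidec, a lipid droplet protein, was called lower in Plg KO (log2 difference -2.43 ± 0.30, adjusted p = 0.0363 in edgeR's test), the only call in the 18 other lists. Tendon markers summed to 56.1, 30.6 and 55.2 CPM in Plg KO, against 88.1, 127.4 and 75.6 CPM in Plg WT, with Fmod at -1.21 ± 0.27, which was not called. The part of these tissues in the muscle differences between libraries was not tested.

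Genes with the smallest p in these lists, none of them called except Cidec, had these log2 differences. Among keratinocyte genes, Dsg3 had 0.41 ± 0.17, Krt15 -0.36 ± 0.17 and Krt5 -0.16 ± 0.11. Among fibroblast genes, Pdgfra had -0.73 ± 0.22, Dpt -0.48 ± 0.17 and Col3a1 -0.46 ± 0.19. Cfd and Adipoq, of fat cells, had -1.81 ± 0.29 and -1.32 ± 0.36. The salivary mucins Muc19 and Muc5b had 0.81 ± 0.51 and 0.77 ± 0.60, and Bpifa2 had 1.30 ± 0.89. Bone genes were led by Runx2 (0.63 ± 0.16), Phex (-1.55 ± 0.59) and Alpl (-0.63 ± 0.48), and cartilage genes by Acan (-1.33 ± 0.84), Chad (-0.35 ± 0.30) and Col2a1 (-0.39 ± 1.07). Of the Schwann cell genes, Mal had 0.56 ± 0.15 and Cnp -0.47 ± 0.21, and endothelial genes were led by Tek (-0.34 ± 0.18), Emcn (-0.18 ± 0.14) and Pecam1 (-0.22 ± 0.18). The globins Hba-a2, Hbb-bt and Hbb-bs had -0.94 ± 0.35, -0.67 ± 0.32 and -0.55 ± 0.33, and the tendon genes Thbs4 and Comp -1.23 ± 0.43 and -0.93 ± 0.41.

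**Figure D5:**
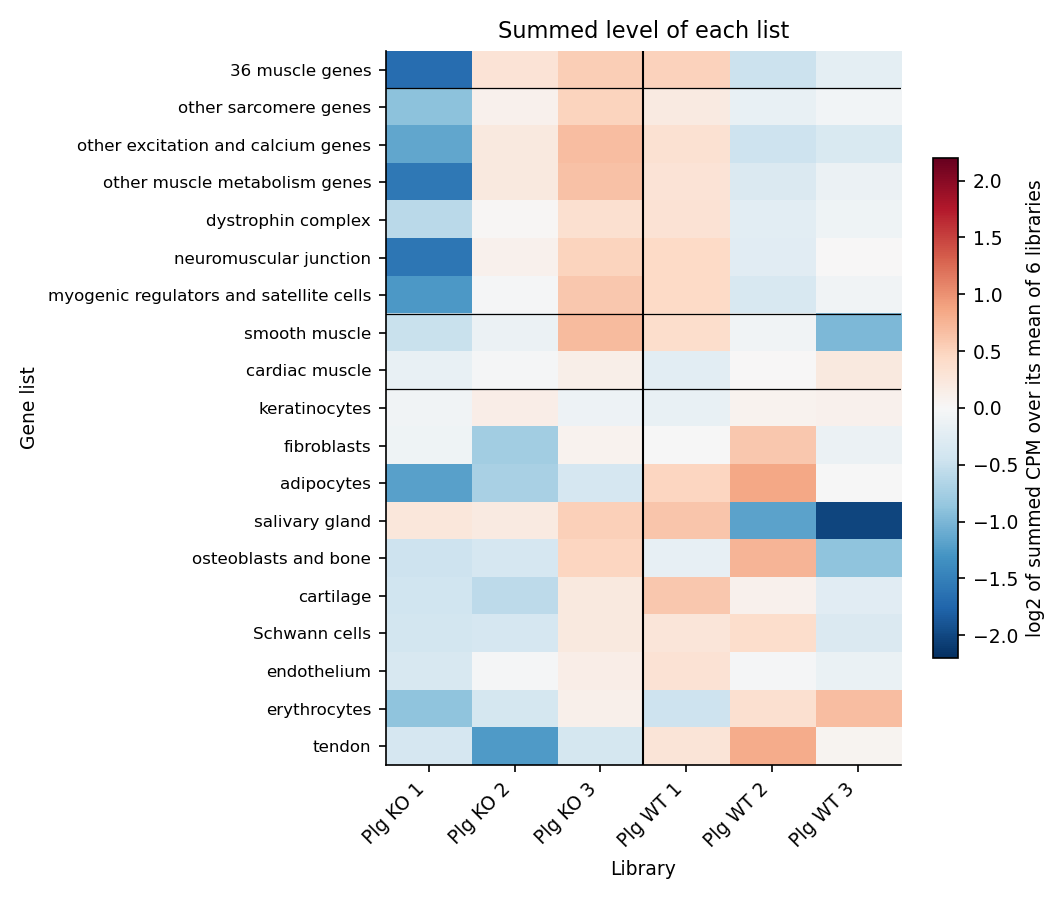
Log2 ratio of the summed CPM of each gene list to its mean over the 6 libraries (colour), with lists in rows and libraries in columns, Plg KO first. The skeletal muscle lists share a low Plg KO 1, and the salivary gland list is instead low in Plg WT 2 and 3.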

How the data were processed

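Total RNA of gingiva was sequenced as 37 bp paired-end reads from Nextera XT libraries, which do not mark strand, per the labels' protocols. STAR 2.5.2a, DESeq2, edgeR and limma, with builds GRCm38.p3 and mm10, are named per the submitters' processing notes, without role or order. No label or header names the counting tool or the annotation. The authors deposited raw counts for 48709 genes and 22 entries that name no gene (at most 3.55e-05% of a library, left out), and TMM-scaled CPM values deposited for 21948 genes. Multiplied by 1 constant per library, 100% of the CPM values gave whole reads (tolerance 0.01), equal to the raw counts, and a test on them called the same number of genes, 42.

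Names of 33 members came from the deposited table and of Myh7, Myl2 and Myl3 from GENCODE M21. CPM in the text are TMM-normalized in edgeR 4.0.16 (R 4.3.3), whose quasi-likelihood F test was run on 17757 genes kept by filterByExpr with Benjamini-Hochberg adjustment and genotype alone in the design. The SE is the log2 change divided by the square root of F. Alternatives were DESeq2 1.42.0, limma 3.58.1 (voom, and trend on log2 values of the authors' CPM with 0.5 added), other scalings, other filters, a replicate block and leaving out each library. The muscle-level covariate, its fits with a library left out, the slow share with binding proteins and the recovered reads were added after seeing the data. All library pairs differed beyond sampling noise (chi-square per degree of freedom 21.4 to 111.4). The members and lists were chosen with earlier results of these data known. Values by library are given for the members that a fixed rule selects (heavy chains, troponins and, in each role, the highest level per kilobase, the smallest p and the extreme log2 changes) and for some further members. Of each other list, called genes and the 3 with the smallest p are named, apart from a few that are not reported here. The scripts were tested on simulated data.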

Additional observations from a re-analysis of the deposited data

How the results depend on the processing

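edgeR, DESeq2 and limma called 0 of the 32 or 33 members tested (36 without a filter) under the other tools, scalings and filters, with the replicate block and with each library left out, and the muscle-level covariate, added after seeing the data, called 1, Tcap (log2 -1.04, adjusted p = 0.0161). With a library left out of that fit, 0 or 1 members, 3 to 690 of all genes (22 without Plg KO 1, 4 without Plg KO 2 or Plg WT 2, 690 without Plg WT 1) and 0 to 17 in the other lists were called. Without Plg KO 1 the median log2 difference of the tested members was 0.42, and without Plg KO 3 it was -0.41. Without Plg KO 1, 7 of 33 members had an unadjusted p under 0.05, against 1783 of 18024 genes. The ratio of summed muscle levels was 0.766 to 1.33 when 1 library was left out and 0.987 to 1.02 under other measures. Counting Mybpc1 and Mybpc2 moved the difference in slow share to 0.288 percentage points. Over all genes 42 were called, against 403 by DESeq2, 162 without a filter, 96 with the covariate, and 2 (without Plg WT 2) to 219 (without Plg WT 1) when 1 library was left out. In the other lists 1 gene was called, against 5 by DESeq2, 0 by limma-voom, 3 without a filter, 2 with the covariate and 0 to 7 when 1 library was left out. Same-numbered libraries did not deviate together (r = -0.32, -0.04 and -0.29). With 3 libraries a group, these values cannot show whether the numbers pair the libraries. With the replicate block 2 of all genes, 0 members and 0 in the other lists were called. With 3 libraries a group, the summed muscle level varied 4.65-fold (2.02-fold without Plg KO 1). For the members with high counts the spread and not the depth was the limit. Myh7, Myl2, Myl3 and Tnnc1 were limited by low counts. Tnnc1 was limited by spread too, with 80 of its 116 counts in Plg KO 3.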

Other observations

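Some genes of immature or regenerating muscle, chosen after their values were seen, were highest in Plg KO 3, and Mymk and Myh3 were found almost entirely there. Others were not. Pax7 had 9, 2 and 2 counts in Plg KO, against 11, 9 and 9 counts in Plg WT, and Mymx had 2, 3 and 6, against 6, 2 and 1. Of 9 tested genes in the list of myogenic regulators and satellite cells, 3 were highest in Plg KO 3 and 6 in Plg WT 1. Mymk, the membrane protein that fuses myoblasts, had 0, 0 and 25 counts in Plg KO, against 0, 1 and 0 counts in Plg WT. Myh3, the embryonic myosin heavy chain, had 0, 0 and 19 counts in Plg KO, against 1, 1 and 0 counts in Plg WT. Chrng, the fetal acetylcholine receptor subunit, had 2, 1 and 11 counts in Plg KO, against 0, 0 and 1 counts in Plg WT. Myog, the transcription factor of myoblast differentiation, had 0.92, 5.59 and 9.89 CPM in Plg KO, against 8.02, 4.25 and 4.74 CPM in Plg WT, and Actc1, the actin of heart and developing muscle, had 1.54, 11.5 and 21.1 CPM in Plg KO, against 11.0, 13.5 and 12.2 CPM in Plg WT. Plg KO 3 was also the library with the highest summed muscle level. As these counts rest on 1 library, they give no comparison of the genotypes.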
